A study of Mus musculus with 11 samples.

Results

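The regions of mouse chromosome 11 were taken as every row of the deposited region table whose chromosome was 11. There were 15671 such regions among 248336, of which 15644 had enough counts to be tested and 27 did not. The measurement was ATAC-seq, in which a transposase cuts accessible DNA and the cut ends are counted. Embryonic stem cells of 4 lines were compared, in a medium with serum, LIF, the MEK inhibitor PD0325901 and the GSK3 inhibitor CHIR99021, which all 4 lines received. The line B6 5-1 is C57BL/6J (B6, 3 libraries) and the line D2 5-5 is DBA/2J (D2, 3 libraries). The line QJ 6-1, called B6-13D2, has 2 libraries and is of the strain B6.D2-(rs30079041-rs51756099)/Bakr, B6 with part of chromosome 13 from D2. The line XE 2-4, called D2-13B6, has 3 libraries and is of the strain D2.B6-(rs29224292-rs13469455)/Bakr, D2 with part of chromosome 13 from B6. The sample labels and the series design text differ in the second marker of that last interval, and the name is given as the sample labels have it. Each genotype was 1 cell line and its libraries are labelled technical replicates, so every p-value measures only the spread between libraries. The exchanged intervals are on chromosome 13, so chromosome 11 is B6 or D2 background DNA in each line as labelled.

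In embryonic stem cells accessible regions are promoters, enhancers and insulator sites, and ATAC-seq counts over them follow both how often a site is open and how many copies of it the cells carry. In bulk counts, the number of chromosome copies per cell, the share of cells that carry them and the accessibility of each copy cannot be told apart. Mouse chromosome 11 is a gene-rich autosome. It holds the Hoxb homeobox cluster, type I keratins, a chemokine cluster, the Schlafen genes, the tumour suppressor Trp53 and Stat3, the transcription factor through which LIF maintains embryonic stem cells. The AP-1 motif that recurs below is the site bound by Fos and Jun family factors.

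Of the regions that departed most from the rest of the chromosome, 3 that stood above it and 3 that stood below it in D2-13B6 are shown by the 300 bases at their centre (GRCm38, forward strand). Capitals mark matches to AP-1 (TGANTCA), TEAD (ACATTCC) or the POU octamer (ATGCAAAT), each searched on both strands. The first 3 lie at chr11:86650742-86651041, chr11:78571890-78572189 and chr11:7019099-7019398, and each holds AP-1 letters.
Vmp1 intron, above: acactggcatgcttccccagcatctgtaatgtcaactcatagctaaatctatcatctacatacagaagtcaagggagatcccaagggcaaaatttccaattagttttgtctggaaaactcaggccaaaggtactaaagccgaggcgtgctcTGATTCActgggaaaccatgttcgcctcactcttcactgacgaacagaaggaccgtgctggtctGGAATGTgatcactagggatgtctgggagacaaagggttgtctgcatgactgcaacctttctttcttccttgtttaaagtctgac
Nlk, above: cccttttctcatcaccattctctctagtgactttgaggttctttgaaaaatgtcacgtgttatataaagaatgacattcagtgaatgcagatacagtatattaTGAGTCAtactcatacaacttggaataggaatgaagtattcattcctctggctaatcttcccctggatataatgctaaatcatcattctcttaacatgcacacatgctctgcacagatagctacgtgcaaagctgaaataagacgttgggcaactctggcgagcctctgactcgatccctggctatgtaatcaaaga
Near Adcy1, above: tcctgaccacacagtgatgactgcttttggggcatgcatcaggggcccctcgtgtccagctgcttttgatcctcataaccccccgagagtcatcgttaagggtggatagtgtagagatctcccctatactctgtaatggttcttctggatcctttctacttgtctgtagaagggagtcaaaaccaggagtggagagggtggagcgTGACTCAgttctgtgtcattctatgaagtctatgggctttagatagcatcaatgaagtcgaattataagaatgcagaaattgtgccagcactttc
The other 3 lie at chr11:20377508-20377807, chr11:52357096-52357395 and chr11:3194587-3194886, and none of them holds AP-1 letters.
Near Gm12033, below: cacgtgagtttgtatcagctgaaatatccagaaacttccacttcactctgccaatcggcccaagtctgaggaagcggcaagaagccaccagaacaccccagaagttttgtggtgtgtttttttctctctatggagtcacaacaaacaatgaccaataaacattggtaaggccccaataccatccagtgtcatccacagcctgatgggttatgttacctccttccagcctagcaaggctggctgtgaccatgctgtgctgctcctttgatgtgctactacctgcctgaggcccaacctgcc
Near Vdac1, below: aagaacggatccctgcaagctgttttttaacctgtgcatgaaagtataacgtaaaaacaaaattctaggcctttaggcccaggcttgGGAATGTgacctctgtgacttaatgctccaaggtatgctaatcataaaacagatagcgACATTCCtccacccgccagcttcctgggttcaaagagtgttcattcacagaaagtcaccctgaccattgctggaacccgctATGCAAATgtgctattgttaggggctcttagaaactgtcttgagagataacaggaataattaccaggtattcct
Sfi1 and Drg1, below: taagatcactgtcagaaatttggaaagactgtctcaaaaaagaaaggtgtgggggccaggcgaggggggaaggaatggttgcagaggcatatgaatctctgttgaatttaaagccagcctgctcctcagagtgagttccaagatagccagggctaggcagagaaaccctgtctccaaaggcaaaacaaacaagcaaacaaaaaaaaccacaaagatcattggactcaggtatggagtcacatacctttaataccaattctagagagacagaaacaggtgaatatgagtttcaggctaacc
The window near Vdac1 holds 1 octamer and TEAD letters at separate places, and the windows near Gm12033 and at Sfi1 hold none of the motifs searched.

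The regions covered chromosome 11 densely. The first began at base 3100151 and the last ended at 121982372, on a chromosome of 122082543 bases in GRCm38. There were 128 regions per Mb against 96.1 per Mb on the 17 other autosomes without chromosome 13 (the other autosomes below), and the regions covered 10.7% of the bases against 7.23%. Protein-coding genes numbered 13.4 per Mb against 8.26. Region widths ran from 94 to 15744 bp with a median of 596 bp, against 549 bp elsewhere. Promoter regions, those within 1000 bp of an annotated start site, made up 17.2% of chromosome 11 regions and 15.3% of those on the other autosomes. Exonic regions made up 10.4% against 8.46%, intronic 35.5% against 37.5% and intergenic 36.9% against 38.7%.

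Depth was 15198496 to 43042955 counts per library over all chromosomes, of which 1194335 to 3768478 lay on chromosome 11. One D2-13B6 library, replicate 2, stood apart in its TMM factor of 0.769. Among 9 promoter markers of embryonic stem cells, the summed level was 236 to 275 CPM (counts scaled to a common library size) in D2-13B6, 339 to 372 in D2, 370 to 381 in B6 and 369 to 388 in B6-13D2. For the 5 of 7 fibroblast markers with a tested promoter (Col3a1 and Lum had none), the summed level was 82.3 to 110 CPM in D2-13B6, 58.5 to 59.6 in D2, 42.6 to 48.9 in B6 and 36.7 to 42.9 in B6-13D2. These 2 marker sums therefore did not overlap between D2-13B6 and the other lines. The sums do not show which markers carried a difference, or whether markers on chromosome 11 itself did. Such markers were not left out, so the sums are not separate from the chromosome 11 levels below. Primitive endoderm, neural and trophectoderm marker sums overlapped between D2-13B6 and D2, and those of primitive streak ran from 46.9 to 55.8 CPM against 57.5 to 65.7.

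Chromosome 11 as a whole stood higher in D2-13B6 than in D2. The shift of a library was taken as the median log2 ratio of normalised CPM to D2 over chromosome 11 regions, less the same median over the other autosomes. The 3 D2-13B6 libraries gave 0.31, 0.30 and 0.29 (mean 0.30, SD 0.01, n = 3), a level 1.23 times that of D2. The 3 B6 libraries gave 0.04 to 0.05 and the 2 B6-13D2 libraries 0.03 and 0.05. Each D2 library, set against the other 2, gave 0.03, 0.08 and -0.11, so the larger spread lay in D2, and the 3 D2-13B6 libraries were above all others. The 17 other autosomes had shifts of -0.05 to 0.08 in D2-13B6. Chromosome 13, which holds the exchanged interval, had -0.35, -0.29 and -0.28 in the same 3 libraries, a shift of like size and opposite sign. The ratio of summed counts, in which wide and strong regions weigh most, gave a smaller shift of 0.21 on the log2 scale.

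**Figure D1:**
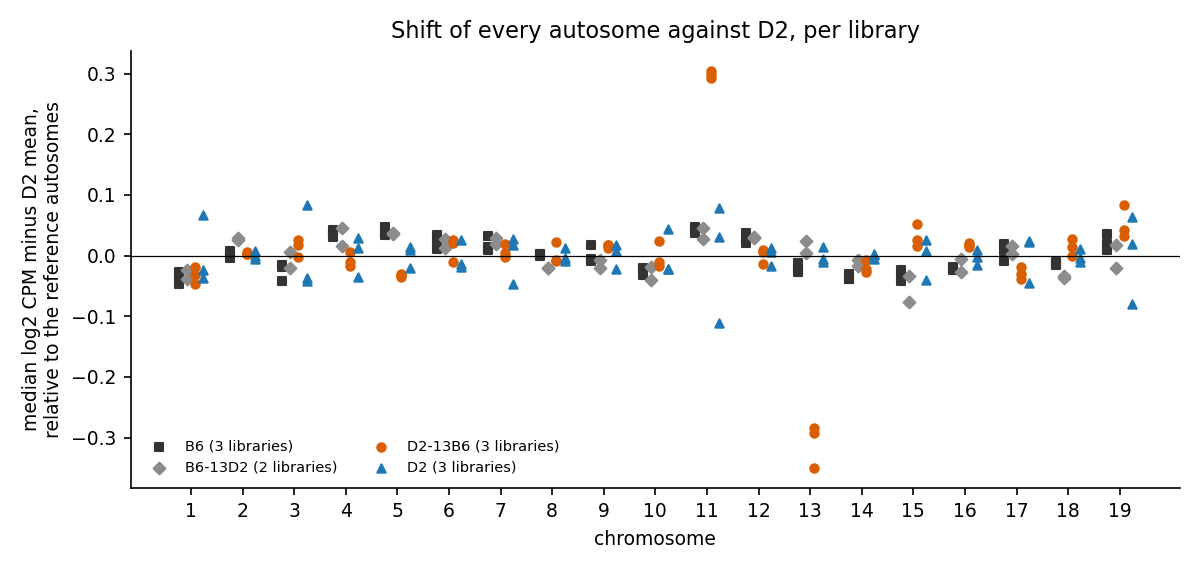
Shift of each autosome against D2 on the log2 scale (y axis) by chromosome (x axis), with 1 point per library coloured by line; each D2 library is set against the other 2 D2 libraries. On chromosome 11 the D2-13B6 points sit at 0.29 to 0.31, above every other library there.

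The gap from the other autosomes was not the same across the distribution. In the edgeR fit over all regions, the median log2 fold change of D2-13B6 against D2 was 0.27 on chromosome 11 and -0.05 on the other autosomes. The gap was 0.45 at the 5th percentile, 0.38 at the 25th, 0.32 at the median, 0.21 at the 75th, 0.06 at the 90th and -0.00 at the 95th. The 95th percentile on chromosome 11 was 1.15, inside the 1.07 to 1.21 of the other autosomes taken singly, while its 5th percentile of -0.30 lay outside their -0.81 to -0.70. At the low percentiles chromosome 11 thus stood above the other autosomes, and at the 95th it stood level with them. The interquartile range was 0.53 against 0.70 elsewhere. At least 2-fold higher estimates were found for 1291 regions, 8.25% of those tested, against 7.70% on the other autosomes. At least 2-fold lower estimates were found for 15 regions, 0.0959% against 1.36%. In D2 against B6 the median gap was -0.04, and in B6-13D2 against B6 it was -0.01. At the 5th and 95th percentiles the gaps were 0.10 and -0.11 in the first and 0.07 and -0.05 in the second. Chromosome 11 thus had the narrower spread there too, so the gap at the 95th does not show whether its high end moved.

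**Figure D2:**
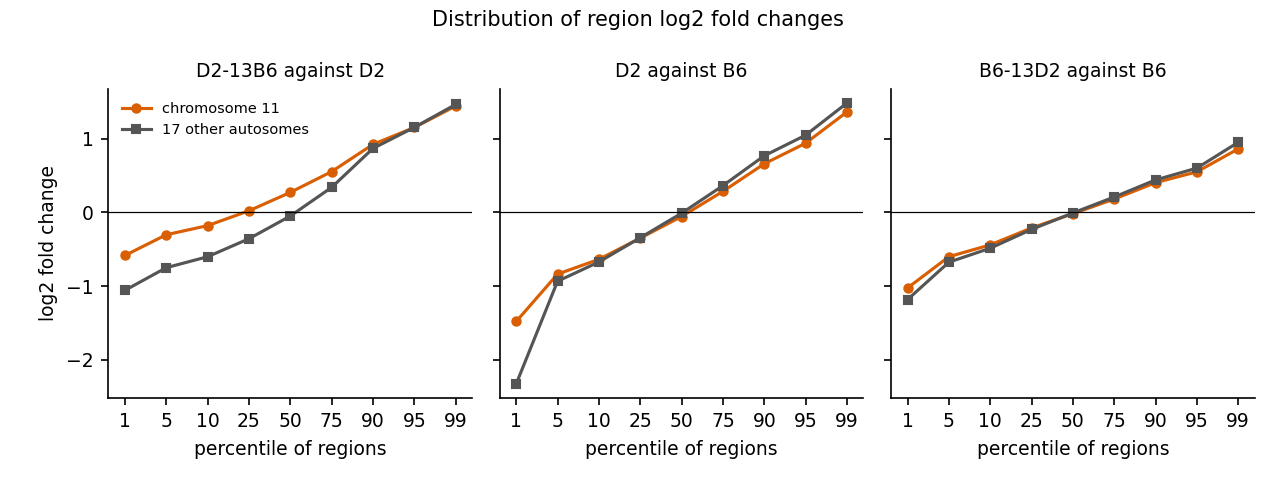
Log2 fold change (y axis) at the 1st to 99th percentile of regions (x axis) for chromosome 11 and the 17 other autosomes pooled, in 3 comparisons of lines. In D2-13B6 against D2 the lines are apart at the low percentiles and meet at the 95th, where the gap is -0.00.

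Tested region by region (edgeR's quasi-likelihood test, Benjamini-Hochberg adjusted p under 0.05 over 246840 regions), 3659 chromosome 11 regions changed between D2-13B6 and D2. This was 23.4% of those tested, against a background of 23.7% over all regions and 23.0% on the other autosomes, so with TMM it was near the background. It was 19.4% against 27.6% on the other autosomes with library totals, 26.3% against 21.9% with edgeR's RLE size factors and 25.5% against 20.8% with DESeq2, so where the total lay relative to the background depended on the scaling. The directions differed from it. Of the calls, 3558 were higher (22.7%, against 15.2% over all regions and 15.0% on the other autosomes) and 101 were lower (0.646%, against 8.53% and 8.05%). The share of calls that were higher was 97.2%. Scaling by library totals in place of TMM gave 2589 higher and 446 lower (85.3% higher). These were 16.5% and 2.85% of the regions tested, against 11.8% and 15.8% on the other autosomes. Without a fit, all 3 D2-13B6 libraries exceeded all 3 D2 libraries at 4860 regions (31.1%, against 18.1% on the other autosomes) and lay under them at 387 (2.47%, against 16.0%). Among promoter regions, 842 of 2692 rose (31.3%, against 15.0% of promoter regions on the other autosomes) and 9 fell (0.334%, against 7.73%). The left-out-library counts ranged from 2735 to 4252.

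D2 and B6 also differed on chromosome 11, in both directions. Of 3313 calls (21.2%, against 22.5% over all regions and 22.7% on the other autosomes), 1894 were higher in D2 (12.1%, against 13.7% and 13.8%) and 1419 lower (9.07%, against 8.80% and 8.94%). Scaling by library totals gave 1602 higher (10.2%, against 11.5% on the other autosomes) and 2278 lower (14.6%, against 13.2%). This turned the majority on chromosome 11 and on the other autosomes alike. This comparison uses the same D2 libraries as the comparison with D2-13B6. In B6-13D2 against B6, 37 regions were called (0.237%, against 0.474% over all regions and 0.400% on the other autosomes), 11 higher (0.0703%, against 0.139% and 0.0838%) and 26 lower (0.166%, against 0.335% and 0.316%). The count was 13 without B6-13D2 replicate 1, 14 without B6-13D2 replicate 2 and 124 when these 2 lines were fitted alone. The strongest was a 1429 bp region at chr11:10166887-10168315, soft-masked at 83.3%, with a mean of 9.10 CPM in B6 and 2.81 in B6-13D2 (log2 fold change -1.68, adjusted p = 1.51e-06).

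Whether the exchange of the chromosome 13 interval acted alike on the 2 backgrounds was tested as an interaction, B6-13D2 minus B6 less D2 minus D2-13B6. On chromosome 11 947 regions were called (6.05%, against 6.54% over all regions and 6.32% on the other autosomes). Of these, 926 were positive (5.92%, against 4.55% and 4.55%) and 21 negative (0.134%, against 1.99% and 1.77%). The count ran from 248 without B6-13D2 replicate 2 to 1975 without D2-13B6 replicate 3.

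The regions with the widest gap between the 2 parental strains describe which strain the chromosome 11 DNA of D2-13B6 resembled. There were 39 regions at least 8-fold apart between D2 and B6, all lower in D2 and spread over 15 of the 25 bins of 5 Mb. Their median level was 0.987 CPM for B6 and 0.674 for B6-13D2, against 0.0798 for D2 and 0.116 for D2-13B6. None of the 39 was nearer to B6 than to D2 in the D2-13B6 line, in any of the 15 bins. The strongest lies in an intron of Ncor1, which encodes a nuclear receptor corepressor, at chr11:62429686-62432183, with means of 10.8 CPM for B6 and 11.9 for B6-13D2, against 0.485 for D2 and 1.11 for D2-13B6. Because the rule picked these regions by their D2 and B6 levels, those levels are a description. Nearness was counted for D2-13B6 only, and the B6-13D2 median does not describe each region. At chr11:24596535-24596823 B6-13D2 had a mean of 0.234 CPM, against 2.22 for B6 and 0.0904 for D2. At chr11:9749958-9750311 it had 0.379, against 2.74 and 0.152. Both of these regions were soft-masked at 100%.

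The shift was positive in each class of width, annotation, repeat content, GC content and gene density. It is given here as the median log2 fold change on chromosome 11 less that of the same class on the other autosomes. By width it was 0.29, 0.31, 0.33, 0.35 and 0.34 from the narrowest quintile of regions to the widest. The median on chromosome 11 alone ran the other way, from 0.35 in the narrowest quintile to 0.24 in the widest, since narrow regions were higher on the other autosomes too. Regions of at most 500 bp and of at least 1500 bp both had 0.30. Among regions of at least 1 CPM on average over all libraries, the narrowest quintile had a median of 0.56 on chromosome 11 (1348 regions) and 0.63 on the other autosomes, and the widest had 0.24 and -0.10. That average includes the D2-13B6 libraries, so a weak region can pass through its level there, and these values do not show how the shift depends on width. By annotation it was 0.34 for exonic, 0.33 for intergenic, 0.32 for intronic and 0.28 for promoter regions, and 0.26 for regions within 250 bp of a start site. Without that restriction, these classes lay within a narrow band around the chromosome's 0.32.

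From the least to the most soft-masked quintile of regions, where soft-masked bases are those marked as repeats, the shift was 0.26, 0.28, 0.30, 0.34 and 0.40. By GC content it was 0.35, 0.35, 0.32, 0.33 and 0.29 from low to high, and by the number of protein-coding start sites within 250 kb on each side of the region 0.29, 0.28, 0.31, 0.34 and 0.32. By the mean level of the region in the B6 and B6-13D2 libraries, which D2 and D2-13B6 do not enter, it was 0.31, 0.33, 0.33, 0.33 and 0.31. Within quintiles of that level, cells with at least 50 chromosome 11 regions were read. The shift stayed positive in all 25 cells of repeat content (0.25 to 0.47) and all 20 of annotation (0.23 to 0.40). It was also positive in all 18 of width (0.22 to 0.45) and all 25 of gene density (0.24 to 0.38). When the quintiles were cut on the level over all libraries, a choice made after seeing the data, the shift ran from 0.33 in the lowest to 0.23 in the highest, and 17 of 21 cells of width were positive (-0.15 to 0.42).

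**Figure D3:**
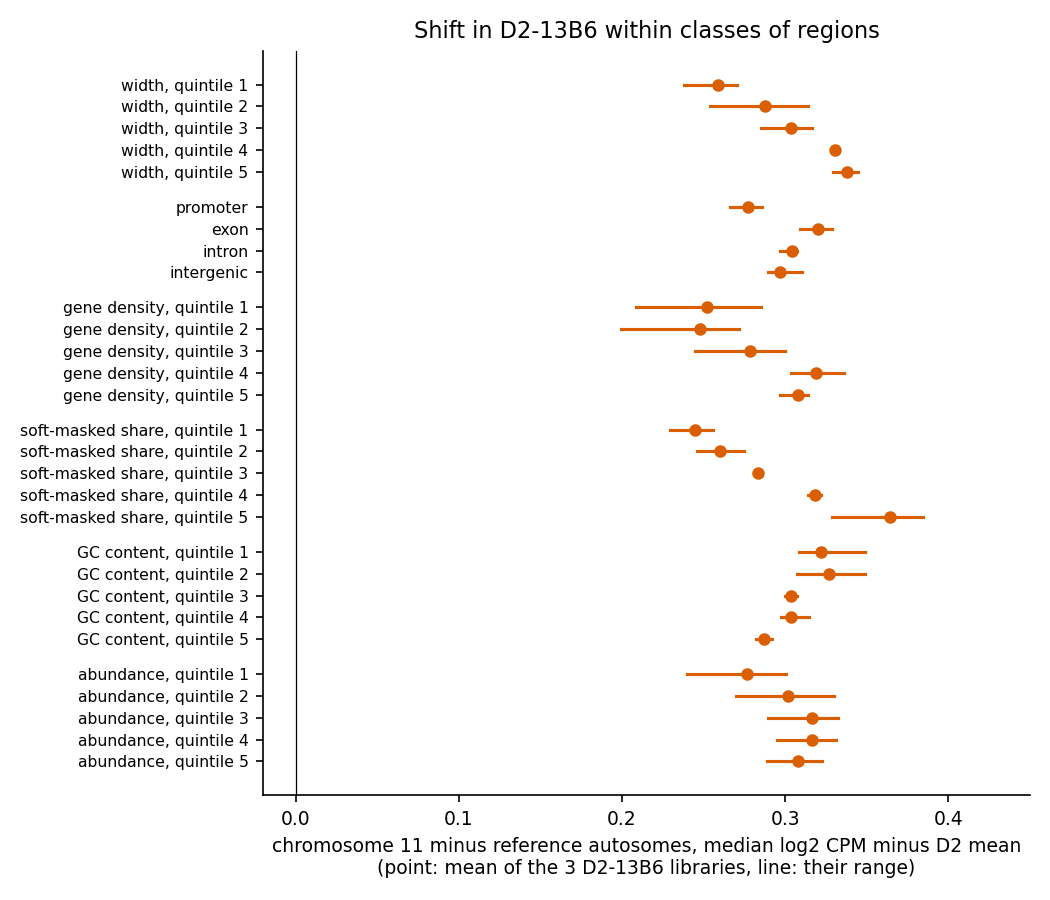
Shift of chromosome 11 in D2-13B6 against D2 on the log2 scale (x axis) by quintiles of width, annotation class, gene density and other properties (y axis). Each point is the mean of the 3 D2-13B6 libraries and each line their range. Points are above 0 in each class and rise from 0.24 to 0.36 with repeat content.

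Along the chromosome the shift was continuous. In 25 bins of 5 Mb, numbered from the centromere end, the fitted shift was positive in all 25 and ran from 0.19 in bin 3 to 0.39 in bin 16 (SD over bins 0.06). The 447 bins on the other autosomes ran from -0.322 to 0.188, just under the 0.191 of the lowest bin of chromosome 11. That lowest bin was 0.0908 without D2-13B6 replicate 1 and 0.114 without D2 replicate 2, inside the range that the other bins had with all libraries. At 2 Mb all 60 bins were positive (0.12 to 0.47), and at 10 Mb all 13 (0.20 to 0.37). In 22 of the 25 bins all D2-13B6 libraries were above all D2 libraries. The exceptions were bins 3, 4 and 6, where D2 replicate 3 reached 0.13, 0.13 and 0.17 and D2-13B6 replicate 2 gave 0.01, 0.09 and 0.11.

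Over 3 segments of equal length, the proximal segment was on average lower than the rest. Its per-library shift was 0.23 ± 0.06 (SD, n = 3), against 0.34 ± 0.01 in the middle segment and 0.31 ± 0.03 in the distal segment. The ranges over the 3 D2-13B6 libraries were 0.17 to 0.29, 0.33 to 0.35 and 0.29 to 0.34. The proximal segment thus did not overlap the middle segment and lay just under the distal segment. The D2-13B6 libraries differed in this by bin. Replicates 1, 2 and 3 gave 0.28, 0.01 and 0.16 in proximal bin 3, and 0.21, 0.37 and 0.30 in distal bin 24. The D2 libraries themselves differed by position, with a range of -0.01 to 0.01 in the proximal segment and -0.15 to 0.11 in the distal segment. Across the 25 bins the shift went with the number of protein-coding start sites (Pearson's r 0.62, Spearman's rho 0.69), as a description over bins that share the same libraries.

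**Figure D4:**
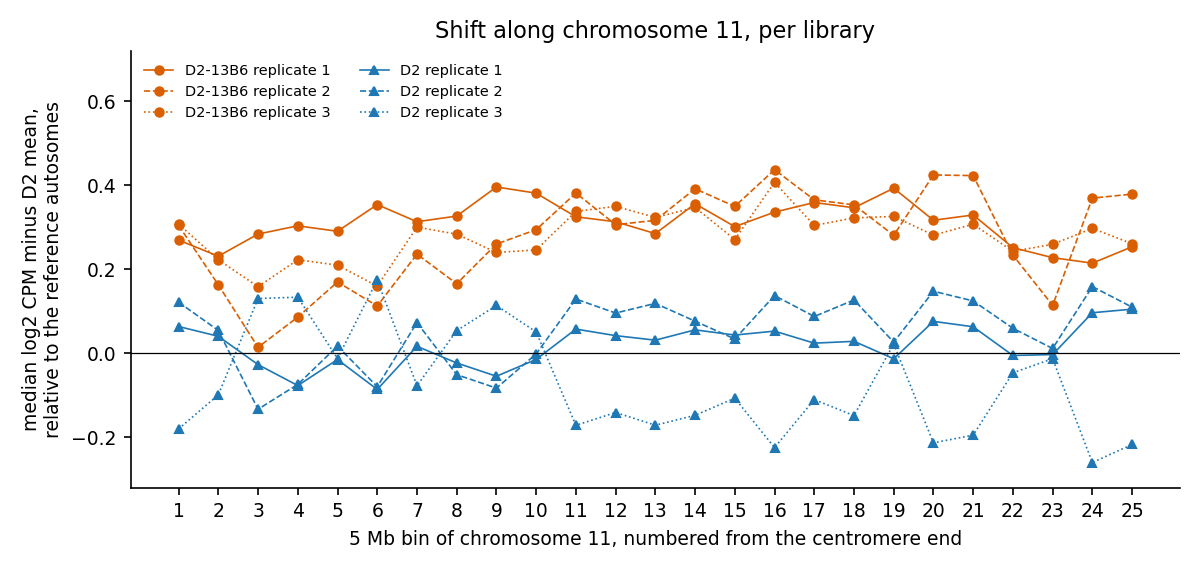
Shift against D2 on the log2 scale (y axis) in 25 bins of 5 Mb along chromosome 11 (x axis, bin number), with 1 point per library of D2-13B6 and D2. D2-13B6 lies above D2 in 22 of the 25 bins, and bin 3 holds the lowest fitted shift of 0.19.

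Regions that departed from the chromosome's own shift were tested by adding the median log2 fold change of each chromosome to the D2-13B6 libraries as an offset. A departure is thus relative to the other regions of chromosome 11. On chromosome 11 2453 regions departed (15.7%, against 22.3% over all regions and 22.5% on the other autosomes), fewer than elsewhere in both directions. There were 1806 above the median (11.5%, against 16.0% and 16.2%) and 647 below it (4.14%, against 6.31% and 6.28%). At least 2-fold departures numbered 426 above and 39 below. Called or not, 440 of 15644 regions had log2 departures of 1 to 2, against 18043 of 212338 on the other autosomes. Log2 departures under -1 numbered 61, against 2191 there. All 1806 regions above were also called higher than D2. Of the 647 below, 101 were called lower than D2 and the others had estimates below D2 without passing that test. The chromosome median of 0.27 lies above 0, so this contrast between the sides follows largely from where the null value sits. The count of departures ranged from 1693 to 3309 when a library was left out.

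Regions above were narrow, low in repeats and often intronic, and regions below were wide, rich in repeats and mostly intergenic. Regions above had a median width of 492 bp, were soft-masked at a median of 10.4% and lay in introns in 44.7% of cases. Their median level was 7.35 CPM in D2-13B6, 3.42 in D2, 2.12 in B6 and 1.91 in B6-13D2, with a median departure of 0.83. Regions below had a median width of 1094 bp, were soft-masked at 24.5% and were intergenic in 51.9% of cases. Their median level was 3.98 CPM in D2-13B6 and 5.20 in D2, with a median departure of -0.64. Over all tested chromosome 11 regions the medians were 597 bp and 14.9%, and 36.8% were intergenic. On the other autosomes the regions above had a median width of 493 bp and a soft-masked share of 10.4%, and those below 1022 bp and 24.8%. Promoter regions departed above in 251 of 2692 cases (9.32%, against 17.7% on the other autosomes) and below in 73 (2.71%, against 5.86%).

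AP-1 letters were frequent in the regions above. In the central 300 bases of a region, TGANTCA was found at 817 of 1806 regions above (45.2%), 44 of 647 below (6.80%) and 1237 of 13191 that were not called (9.38%). Over all chromosome 11 regions the share was 13.4%, against 13.8% on the other autosomes, where it was 39.1% above, 6.90% below and 9.08% not called. By size of departure on chromosome 11, the share was 10.8% between 0 and 0.5 on the log2 scale, 36.4% between 0.5 and 1 and 55.0% between 1 and 2, against 9.76%, 21.1% and 52.6% on the other autosomes. Above 2 it was 0 of 4 regions, against 13.9% elsewhere, so the share did not rise throughout. On the negative side it was 7.60% between 0 and -0.5 and 4.92% under -1. Departures are taken from each chromosome's own median log2 fold change, 0.27 on chromosome 11 and -0.08 to 0.00 on the other autosomes. The same size of departure is therefore a larger fold of D2-13B6 over D2 on chromosome 11 than elsewhere. Left-out-library shares above ran from 35.8% without D2-13B6 replicate 3 to 51.6% without D2-13B6 replicate 2. The fibroblast marker sum given earlier was higher in D2-13B6 than in D2 (82.3 to 110 CPM against 58.5 to 59.6), as these regions were. The stem cell marker sum was lower. Markers on chromosome 11 were not left out of these sums, and the part of either in the result was not tested.

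Shares of the other motifs differed less between the sides. TEAD letters (ACATTCC) were in 8.91% of the windows above, 7.42% below and 5.69% not called. POU octamer letters (ATGCAAAT) were in 1.88%, 3.86% and 2.77%, KLF letters (GGGTGTGG) in 4.60%, 5.72% and 6.50%, and GATA letters (AGATAAG) in 3.71%, 3.55% and 2.95%. ESRRB letters (TCAAGGTCA) were in 0.554%, 0.927% and 1.5%, and the CTCF core (CCAGGGGGC) in 0.332%, 0.155% and 0.887%. Over all tested chromosome 11 regions the shares were 6.14% for TEAD, 2.72% for the octamer, 6.25% for KLF, 3.06% for GATA, 1.37% for ESRRB and 0.793% for CTCF. For AP-1, the 2098 chromosome 11 regions with its letters had a median log2 fold change of 0.63, against 0.46 for such regions on the other autosomes. That gap was 0.18, and the gap between regions without AP-1 letters was 0.33.

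The region with the clearest departure above lies in an intron of Vmp1, which encodes an endoplasmic reticulum membrane protein of autophagy, at chr11:86650566-86651218. Its levels were 12.1, 18.6 and 14.7 CPM in D2-13B6, 4.10, 4.79 and 4.41 in D2, 2.43, 3.05 and 3.46 in B6 and 3.00 and 2.14 in B6-13D2. All 3 D2-13B6 libraries stood above every other library. It was 3.40 times as high in D2-13B6 as in D2 (log2 fold change 1.77 ± 0.18 SE, adjusted p = 4.49e-11), and its departure was 1.496 ± 0.18 (adjusted p = 2.19e-09). A second region near it, at chr11:86570047-86570815, 13343 bp from the start of the microRNA gene Mir21a, had 16.2, 25.9 and 17.6 CPM in D2-13B6 and 5.32, 7.98 and 6.50 in D2. Again the groups did not overlap.

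A 296 bp region at chr11:78571893-78572188, 211 bp from an annotated start of Nlk, a kinase of the Wnt pathway, had 6.75, 9.0 and 7.22 CPM in D2-13B6 and 2.10, 2.68 and 2.09 in D2. In B6 it had 1.60, 1.04 and 1.44 CPM, and in B6-13D2 1.55 and 1.74. Its departure was 1.47 ± 0.20 (adjusted p = 2.72e-08). It is not the Nlk promoter region with the highest count, which is described with the Wnt genes. The intergenic region at chr11:7018963-7019536, 43953 bp from the nearest start, that of the adenylate cyclase gene Adcy1, had 13.2, 16.3 and 11.3 CPM in D2-13B6 and 4.85, 5.14 and 4.30 in D2 (departure 1.24 ± 0.17, adjusted p = 4.88e-08). An intergenic region at chr11:49232829-49233311, 10880 bp from Mgat1, had 7.53, 8.85 and 6.26 CPM against 2.31, 1.90 and 2.46, and B6 lay at 0.427 to 1.18. In all these regions the order was D2-13B6, then D2, then the 2 B6-background lines.

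The remaining 3 named regions above were intergenic. The strongest of these in level, at chr11:43919506-43920355 and 18296 bp from the adrenergic receptor gene Adra1b, had 27.9, 40.9 and 30.4 CPM in D2-13B6 and 11.7, 11.3 and 11.5 in D2. The other 2 lay near Gm12024 and Gm11677. Over the 8 regions the fold of D2-13B6 over D2 was 2.86 to 3.40 and the departure 1.24 to 1.496. All 8 were called higher in D2 than in B6 (log2 fold change 0.59 to 1.502), a comparison that shares the D2 libraries, and none was called between B6-13D2 and B6 (-0.33 to 0.24). Soft-masked shares were 0.7% to 16.5%, and 6 of the 8 windows held AP-1 letters.

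Below the median, the clearest departure was at an intergenic region at chr11:20377241-20378076, 41228 bp from Gm12033, of whose bases 55.6% were soft-masked. It had 3.53, 3.03 and 3.10 CPM in D2-13B6 and 6.85, 5.44 and 6.56 in D2, with no overlap. B6 lay at 3.23, 3.84 and 3.85 CPM and B6-13D2 at 5.46 and 5.73, so D2-13B6 was nearer to B6 than to D2 here. The log2 fold change was -0.96 ± 0.18 (adjusted p = 3.31e-05) and the departure -1.23 ± 0.18 (adjusted p = 2.60e-07). A region at chr11:52356671-52357822, 3038 bp from Vdac1, the gene of a mitochondrial outer membrane channel, was soft-masked at 70.9%. It had 2.03, 2.00 and 2.72 CPM in D2-13B6 and 4.15, 4.58 and 4.70 in D2 (departure -1.27 ± 0.20, adjusted p = 1.10e-06). The lowest departure, -1.44 ± 0.24, was at chr11:51129595-51130647, 11885 bp from the pseudogene Olfr1374-ps1, at 1.82, 1.15 and 1.89 CPM against 3.40, 4.31 and 3.21.

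The strongest signal among them was a 7851 bp region at chr11:3190812-3198662, which spans starts of Sfi1, a centrosome protein gene, and Drg1, a GTP-binding protein gene. It had 482, 455 and 493 CPM in D2-13B6, 857, 722 and 894 in D2, 467, 466 and 486 in B6, and 636 and 615 in B6-13D2. The D2-13B6 libraries overlapped those of B6 and lay under both others (log2 fold change against D2 -0.79 ± 0.18, departure -1.06 ± 0.18, adjusted p = 2.62e-06). The region is 43.5% soft-masked and overlaps the processed pseudogene Fau-ps2, so how its reads were assigned among near-identical copies is uncertain. The treatment of such reads is not given in the sources used here. An intronic region of Nsg2, which encodes a neuronal vesicle protein, at chr11:32007912-32008737, had 5.40, 6.45 and 4.2 CPM in D2-13B6 and 9.65, 7.60 and 9.68 in D2. Over the 8 named regions below, 5 were soft-masked over 40% and departures ran from -1.44 to -0.97. The fold of D2-13B6 over D2 was 0.446 to 0.617, and none was called between B6-13D2 and B6.

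**Figure D5:**
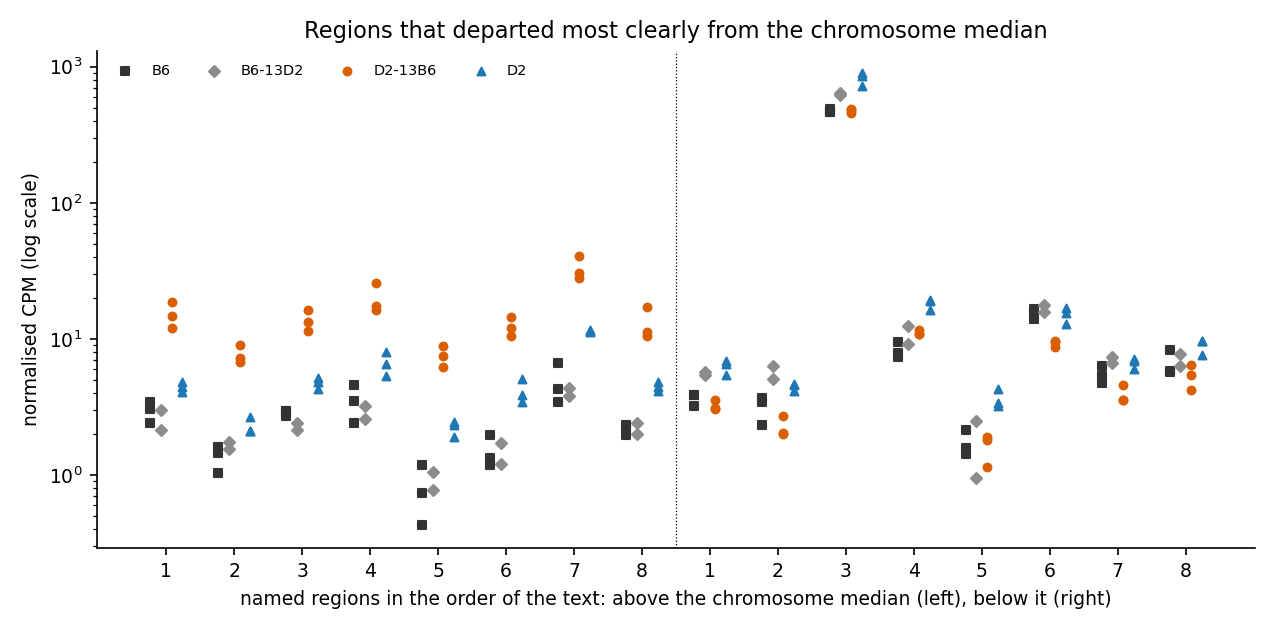
Normalised CPM on a log axis for each library of the 4 lines at the 16 named regions, 8 above and 8 below the chromosome's shift. D2-13B6 points stand above the D2 points in each of the 8 regions above and under them in each of the 8 below.

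Promoter regions were then read by gene group. The 16 groups had 169 genes with a tested promoter region, 168 distinct regions. Of these regions 151 had positive log2 fold changes, 67 rose and 1 fell in D2-13B6, with a median of 0.39 against 0.34 over chromosome 11 promoters and 0.06 over those of the other autosomes. The share that rose was 39.9%, beside 31.3% of all chromosome 11 promoter regions, and the share that fell was 0.595% beside 0.334%. Departures were 17 above (10.1%) and 3 below (1.79%), near the 9.32% and 2.71% of all chromosome 11 promoter regions. The counts of the groups below are set beside these shares of 31.3% higher and 9.32% above. Each listed gene was read at its promoter region with the highest mean count, whereas those shares cover all promoter regions, weaker ones included. The regions compared are thus unlike in level, and a gap between the shares may come from that. Scaling by library totals gave 131 positive estimates, 55 that rose, 4 that fell, and departures of 28 above and 7 below; each group's median kept its sign except that of Myh13 alone. When a library was left out, the count that rose was 40 without D2 replicate 3, 44 without D2-13B6 replicate 2 and 107 without D2-13B6 replicate 3. The count above was 10 without D2-13B6 replicate 2, 11 without D2 replicate 1 and 55 without D2-13B6 replicate 3.

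Of 7 genes of the LIF and STAT3 pathway, all 7 had positive estimates and 4 rose (57.1%, beside 31.3% of all chromosome 11 promoters; median 0.53). None departed with TMM, and 2 departed above with library totals. Stat3 had 66.6, 88.8 and 53.4 CPM in D2-13B6 and 49.7, 46.3 and 44.9 in D2, with no overlap (log2 fold change 0.57 ± 0.17, adjusted p = 0.00878). Of 9 Wnt pathway genes 4 rose (44.4%, median 0.20). The frizzled receptor gene Fzd2 had 49.8, 65.7 and 46.2 CPM against 36.8, 38.7 and 35.3, and the main Nlk promoter 48.9, 50.2 and 33.2 against 28.3, 24.6 and 29.5. Among the promoter regions read for this group, the weaker Nlk region described earlier not being one, only that of the ligand gene Wnt9a departed above, by 0.46 ± 0.16 (adjusted p = 0.0327). Its levels were 36.0, 45.5 and 34.8 CPM against 25.3, 24.3 and 20.6.

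In the Hoxb cluster, homeobox genes of body patterning, 7 of 10 rose (70%, beside 31.3% of all chromosome 11 promoters; median 0.53). Hoxb9 had 30.6, 28.8 and 23.0 CPM against 18.8, 20.1 and 18.0 in D2, while Hoxb1 had 2.39, 1.82 and 2.58 against 2.28, 2.54 and 2.32 and overlapped. Hoxb2 departed above by 0.48 ± 0.17 (adjusted p = 0.0328). Of 18 developmental transcription factors with a tested promoter 6 rose (33.3%, near the 31.3% of all chromosome 11 promoters; median 0.33), and the retinoic acid receptor gene Rara was at 48.8, 55.0 and 47.5 CPM against 34.0, 35.1 and 35.4. The homeobox gene Dlx4 departed above by 0.55 ± 0.16 (adjusted p = 0.00917) and Sox9, a factor of cartilage and testis development, by 0.48 ± 0.16. Ikzf1, a lymphoid factor, departed below by -0.52 ± 0.17 (adjusted p = 0.0171), at 34.3, 36.5 and 24.5 CPM in D2-13B6 against 42.8, 31.9 and 38.9 in D2, which overlapped.

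With TMM, no promoter region of the Polycomb, chromatin, cell division, housekeeping or imprinted genes passed the departure test. With library totals, 2 of the cell division and 2 of the housekeeping genes departed above, and 1 imprinted gene above and 1 below. Of 7 Polycomb genes 2 rose (28.6%, near the 31.3% of all chromosome 11 promoters; median 0.37), among them Pcgf2, a subunit of Polycomb repressive complex 1, at 47.3, 49.4 and 35.6 CPM against 31.8, 29.5 and 30.4. Of 12 other chromatin regulators 2 rose (16.7%, median 0.36), and the acetyltransferase gene Kat7 had a log2 fold change of 0.42 ± 0.17 (adjusted p = 0.0562). Of 14 genes of cell division and DNA damage 8 rose (57.1%) and all 14 estimates were positive (median 0.50). Trp53 had 78.7, 92.5 and 65 CPM against 62.4, 56.1 and 52.0 (log2 fold change 0.47 ± 0.17, adjusted p = 0.0312), with no overlap. Of 18 housekeeping genes 6 rose (33.3%) and all 18 estimates were positive (median 0.41), with 0.42 for the translation factor gene Eif4a1. Of 4 imprinted genes 2 rose (50%), and the decarboxylase gene Ddc had 67.7, 96.4 and 64.9 CPM against 47.0, 49.6 and 46.7.

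The chemokine, Schlafen and keratin clusters held 11 of the 17 departures above. In the chemokine cluster, whose genes attract leukocytes, 5 of 11 genes had a tested promoter and 4 of these rose and departed above (80%, beside 31.3% and 9.32% of all chromosome 11 promoters; median log2 fold change 1.23). Ccl2 had 19.8, 25.5 and 15.3 CPM in D2-13B6, 8.59, 9.77 and 9.60 in D2, 3.76, 3.96 and 4.68 in B6 and 2.91 and 4.33 in B6-13D2 (departure 0.85 ± 0.17, adjusted p = 7.64e-05). Ccl7 departed by 1.11 ± 0.20, Ccl3 by 1.00 ± 0.19 and Ccl9 by 0.96 ± 0.21. Of 8 tested Schlafen genes, a family linked to immune cell growth, 6 rose (75%, median 0.65) and 3 departed above (37.5%). Slfn2 had 16.2, 23.3 and 15.3 CPM against 6.02, 9.61 and 6.27 in D2 (departure 1.05 ± 0.18, adjusted p = 3.84e-06). Slfn5os departed by 1.11 ± 0.25 from levels of 0.726 to 3.67 CPM in both lines; Slfn5os is antisense to Slfn5 and ATAC-seq has no strand. Slfn10-ps was the remaining departure, and Slfn9 rose without one (0.47 ± 0.17, adjusted p = 0.0350). In D2-13B6 the fibroblast marker sum was higher than in D2 and the stem cell marker sum lower. Neither sum leaves out markers on chromosome 11, and their part in these clusters was not tested.

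In the keratin cluster, with genes of hair and epithelial filaments, 20 of 50 genes had a tested promoter, 6 rose (30%, near the 31.3% of all chromosome 11 promoters; median 0.23), 4 departed above (20%) and 1 below (5%). Krtap1-5 had 10.4, 12.6 and 8.80 CPM in D2-13B6, 3.84, 4.26 and 3.93 in D2 and 1.46, 2.32 and 1.53 in B6 (departure 1.14 ± 0.18, adjusted p = 1.02e-06). Krt16, Krtap2-4 and Krtap4-16 were the others above. Krt23 departed below by -0.70 ± 0.18 (adjusted p = 0.00164), at 3.82, 4.15 and 3.82 CPM against 5.60, 5.01 and 5.33, while the highest in count, Krt17, was at 10.8, 12.3 and 11.4 against 14, 12.0 and 10.9 and overlapped. Of 104 olfactory receptor genes 12 had a tested promoter, none rose and 1 fell. That one, the pseudogene Olfr400-ps1, had 1.77, 2.24 and 2.30 CPM against 4.36, 3.32 and 3.93 (log2 fold change -0.88 ± 0.22, adjusted p = 0.00122, departure -1.15 ± 0.22), and the highest in count was Olfr1372-ps1. Olfactory receptors and Schlafen genes are multigene families, in which reads may be shared between copies.

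Of 22 zinc finger genes with a tested promoter, in 21 distinct regions, 10 rose (45.5% of the genes, median 0.37), and Zfp207 and Zfp354b departed above. Zfp207 had 23.5, 25.8 and 18.0 CPM against 12.5, 13.4 and 14, and Zfp672 had the highest count of the group. Few members of the skeletal myosin cluster and of the alpha globin and cytokine clusters were measured. These were Myh13, at 2.16, 1.24 and 3.13 CPM against 2.08, 2.01 and 1.98, and 2 genes of 8 in the other clusters, Hba-x among them, with estimates of -0.22 and -0.20 that did not pass the test. The departures of Hoxb2, Wnt9a, Sox9, Ikzf1, Krt16, Krtap4-16, Slfn10-ps, Zfp207 and Zfp354b were each lost when at least 1 library was left out. Those of Dlx4, Krt23, Krtap1-5, Krtap2-4, Ccl2, Ccl3, Ccl7, Ccl9, Slfn2, Slfn5os and Olfr400-ps1 held under each library left out.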

How the data were processed

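The authors deposited whole-number ATAC-seq counts per region for 11 libraries in 1 table, not normalized. Duplicate and mitochondrial reads had been removed, per the file headers. The submitters' processing notes name the mm10 build and, with no role given, Trimmomatic 0.39, BWA 0.7.5, Picard 2.0.1, MACS 1.4.2, bedtools 2.9.2 and edgeR 3.34.1. How the peak regions were merged, and how reads that map to several places were counted, is not given in the sources used here.

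Regions were annotated with GENCODE M21 on GRCm38. All libraries were fitted with edgeR 4.0.16 in R 4.3.3 by its quasi-likelihood test, with 1 coefficient per line, TMM, filterByExpr and a robust fit, with Benjamini-Hochberg adjustment over 246840 regions and a threshold of 0.05. The departure fit added the chromosome median to the D2-13B6 libraries as an offset. CPM are normalised by TMM. Standard errors come from the log2 fold change and its F statistic. Chromosome 13, which carries the exchanged intervals, the sex chromosomes and chromosome 11 itself were kept out of the reference autosomes. DESeq2 1.42.0, other scaling, filters, a minimum fold, a replicate block and leaving out each library were alternatives. The procedure was tested on simulated data. Intervals and tests cover the spread between libraries, and libraries of a line differed by more than counting noise (chi-square per degree of freedom over chromosome 11 regions 2.07 to 7.79).

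The members and gene lists were chosen with earlier results of these data known. Named regions were the 8 above and 8 below with the smallest p-value among departures with at least 1 CPM in D2-13B6 or D2 and no overlap of libraries. Named genes were list members whose promoter region departed and the highest in count of each list; Hoxb1, Nlk, the Ncor1 region and the strongest call between B6-13D2 and B6 fall outside this rule and were chosen after their values were seen.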

Additional observations from a re-analysis of the deposited data

Results flagged for a closer look

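The difference between lines with the D2 and B6 chromosome 13 interval was not alike on the 2 strain backgrounds at 947 chromosome 11 regions. This was 6.05% of those tested, against 6.54% over all regions and 6.32% on the other autosomes. It was tested as an interaction term in edgeR's quasi-likelihood test, as B6-13D2 minus B6 less D2 minus D2-13B6. Of the calls, 926 were positive and 21 negative. With 1 line per genotype, an effect of the interval cannot be told apart from other differences between lines. The chromosome-wide shift of D2-13B6 also enters this contrast. Positive calls were also more numerous than negative ones on the other autosomes (4.55% against 1.77%). All 8 named regions above the chromosome's shift were among the calls and none of the 8 below. The named regions were picked on D2-13B6 against D2, which is a term of this contrast, so these counts are only a description. The count ran from 248 without B6-13D2 replicate 2 to 1975 without D2-13B6 replicate 3. It was 392 without B6-13D2 replicate 1, 492 without D2 replicate 1, 495 without B6 replicate 1, 582 without D2 replicate 3 and 608 without D2-13B6 replicate 2. With 2 B6-13D2 libraries, leaving out either one leaves a lone library assumed to vary like the other groups.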

How the results depend on the processing

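All 16 named regions kept their departure call and direction under each alternative run. A minimum fold of 1.5 left 1021 calls for D2-13B6 against D2 (6.53%, against 6.62% on the other autosomes). It left 645 for D2 against B6 (4.12%, against 6.03%) and 6 for B6-13D2 against B6 (0.0384%, against 0.1%). Departures numbered 349 (2.23%, against 7.32%). Fitting B6-13D2 and B6 alone gave 124 calls. Library totals moved the median of all regions by -0.17 in D2-13B6 against D2 and by -0.13 in D2 against B6. The summed-count ratio gave a shift of 0.21. The width contrast (shift of the widest less the narrowest quintile) was 0.05, and it was 0.42 with regions of at least 1 CPM (an average that includes D2-13B6, so regions can enter through that line), -0.11 on chromosome 11 alone and 0.000465 between at most 500 and at least 1500 bp. The neighbourhood contrast (promoter less intergenic regions) was -0.05, and 0.10 on chromosome 11 alone. The Myh13 promoter went from 0.10 to -0.0373 with library totals and ranged from -0.24 without D2-13B6 replicate 3 to 0.37 without D2-13B6 replicate 2; the cause was not tested. With each library left out, calls ranged from 2735 to 4252 (D2-13B6 against D2), 2377 to 3073 (D2 against B6), 13 to 28 (B6-13D2 against B6), 1693 to 3309 (departures) and 248 to 1975 (interaction). The shift ranged from 0.26 to 0.32, the width contrast from 0.04 to 0.07, the neighbourhood contrast from -0.06 to -0.03 and the shift of the lowest 5 Mb bin from 0.09 to 0.24. DESeq2 called 3987 and 2973 regions in the first 2 comparisons, 31 in the third and 2245 departures.

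With a replicate block, calls numbered 3761, 3437 and 42, departures 2621, and the shift was 0.30. Same-numbered D2-13B6 and D2 libraries had correlated deviations of -0.04 to 0.06, so the numbers were not taken as pairs. At 1 line per genotype and 2 or 3 libraries, values per region below about 1 CPM are the least precise.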
